A study of Saccharomyces cerevisiae with 6 samples.

Results

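Meiosis and sporulation genes are the genes that budding yeast uses to halve its chromosome set and to build spores. They were chosen here by name, as a list of 35 genes that covers the regulators, the recombination and chromosome axis machinery, and the genes of nuclear division, spore formation and the spore wall. All 35 were measured, out of 5656 genes that the array's annotation ties to a probe set of their own. Where a gene had several probe sets, the one of highest mean signal stood for it. The cultures were strain W303 with the prion [GAR+] (3 cultures) or without it ([gar-], 3 cultures), taken in late exponential growth (OD600 near 0.8) in complete synthetic medium, with glucose at 2%, and each gave 1 Affymetrix array from poly(A) RNA. [GAR+] is a protein-based element that is inherited without a change in DNA and lets cells use other carbon sources in the presence of a glucose mimic. No deletion, transgene or drug is named for either group, and the labels give no mating type or ploidy.

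In yeast, meiosis normally starts in a/alpha diploid cells that lack nitrogen and a fermentable sugar. The transcription factor Ime1 then switches on the early genes, and the transcription factor Ndt80 switches on the middle genes of nuclear division and spore formation. In growing cells glucose and the repressor Rme1, which haploid cells make, hold IME1 down, while the Ume6-Sin3-Rpd3 complex holds down early genes and the Sum1-Rfm1-Hst1 complex holds down middle ones. The questions put to these arrays were which of the 35 genes gave a signal above background in growing cells, and whether any differed between [GAR+] and [gar-].

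Signals are those of MAS5, quantile-normalized across the 6 arrays. The background of an array was taken as its highest non-yeast control, that is, the highest of 16 probe sets that should find no target in yeast RNA. It was 27.6, 21.4 and 12.7 in [gar-] cultures 1, 2 and 3 and 18.8, 15.1 and 20.2 in [GAR+] cultures 1, 2 and 3. Being above it is a description and not a statistical call, and values are always given in the order of cultures 1, 2 and 3. A signal is that of 1 probe set, so signals of different genes are not compared with each other. In RNA from whole cultures, fewer cells that express a gene and less RNA per cell cannot be told apart.

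Only 7 of the 35 genes, 20.0%, lay above the highest control on all 6 arrays. Of all 5656 genes 4961 did, or 87.7%. At the other end, 12 of the 35 genes, 34.3%, were above the controls on no array, against 239 of all genes (4.23%). The remaining 16 were above them on 1 to 5 arrays. The 7 genes were IME1, NDT80, ZIP1, SPO12, SSP1, SGA1 and SPS19. The 12 were SPO11, REC114, HOP1, MEK1, HOP2, SPO13, MER1, SPO19, SPO20, SPS2, DIT2 and SMK1.

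**Figure D1:**
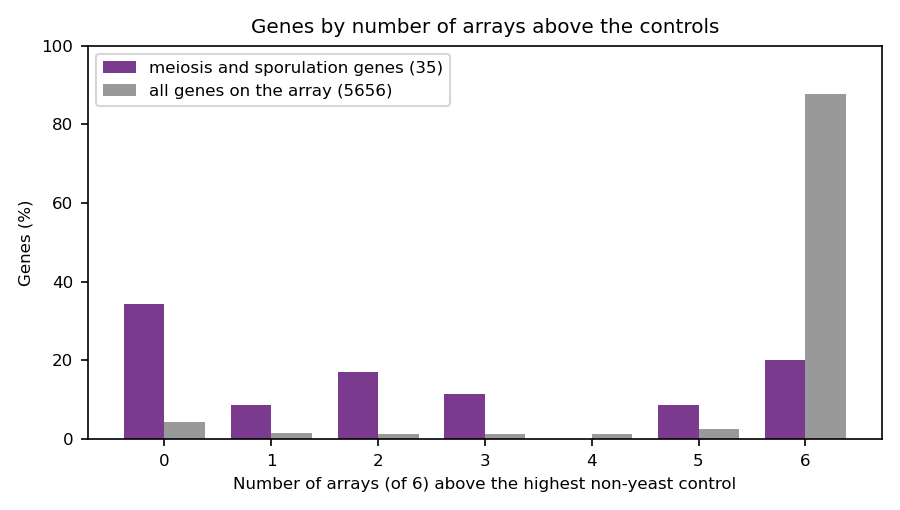
Share of genes (%) by the number of arrays, of 6, on which the gene's signal was above the highest non-yeast control, for the 35 meiosis and sporulation genes (purple) and all 5656 genes (grey). The grey bars pile up at 6 arrays (87.7%), while the purple bars are spread out, with 34.3% at 0 arrays and 20.0% at 6.

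**Figure D2:**
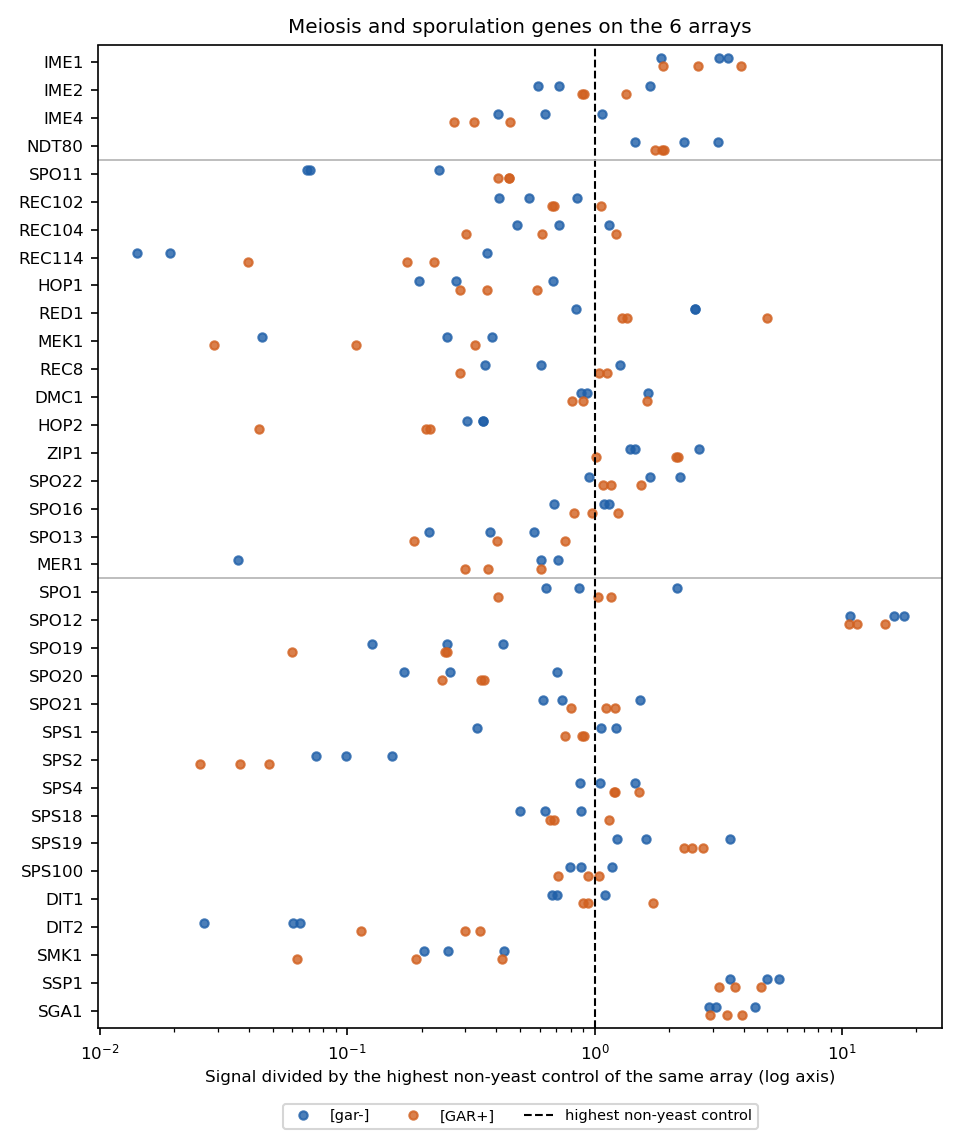
Signal of each of the 35 genes divided by its array's highest non-yeast control, on a log axis, with 1 point per array (blue [gar-], orange [GAR+]) and the control level as a dashed line. Grey lines part the regulators (top), the recombination and axis genes, and the genes of nuclear division, spore formation and wall. All points of 7 genes, SPO12 among them, lie to the right of the dashed line, and all points of 12 genes to its left.

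The count moved with the level of the controls, since that level differed between arrays. The number of the 35 genes above it was 8, 12 and 20 in [gar-] cultures 1, 2 and 3 and 14, 19 and 11 in [GAR+] cultures 1, 2 and 3. The most were counted on the arrays with the lowest controls, [gar-] culture 3 and [GAR+] culture 2. Over all genes the share above the controls lay between 88.9% and 95.1% of an array, so it moved far less. On all 6 arrays the highest control was a probe set for the reverse strand of a spike-in. Without these, with the 7 mouse and TrpnX controls as background, 21 of the 35 genes (60.0%) and 94.6% of all genes cleared all 6 arrays, and with the highest control multiplied by 2 these were 3 (8.57%) and 76.0%. All 3 [gar-] arrays were cleared by 7 of the 35 genes (20.0%, against 88.1% of all genes) and all 3 [GAR+] arrays by 10 (28.6%, against 90.6%). The genes added in [GAR+] were RED1, SPO22 and SPS4, each of which missed the level on 1 [gar-] array. Being added does not mean a higher signal, since SPO22 read lower on each [GAR+] array than on any [gar-] array. SPS4 missed at 18.7 in [gar-] culture 2 (level 21.4) and cleared at 18.1 in [GAR+] culture 2 (level 15.1).

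Among the 4 regulators, IME1 and NDT80 were above the controls on all 6 arrays. IME1, the master regulator of entry into meiosis, read 51.4, 73.7 and 40.4 in [gar-] and 49.1, 28.5 and 79.0 in [GAR+]. The groups overlapped, and the lowest and the highest value were both in [GAR+]. Its log2 fold change of [GAR+] over [gar-] was -0.10 with a standard error of 0.28 and a 95% confidence interval of -0.73 to 0.52. Fold changes here and below were taken on log2(signal + 16), so those of dim genes come out too small.

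NDT80, the activator of middle genes, read 40.4, 49.2 and 39.8 in [gar-] and 33.0, 28.7 and 37.8 in [GAR+]. Each [GAR+] value was under each [gar-] value, though the gap between 37.8 and 39.8 was smaller than the SD of either group (5.29 and 4.58, n = 3). The log2 fold change was -0.27 with a standard error of 0.15 (95% confidence interval -0.61 to 0.07), and limma gave an unadjusted p of 0.109 and an adjusted p of 1.00.

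The other regulators stayed close to background or under it. IME2, a protein kinase that acts after Ime1, read 16.3, 15.4 and 21.2 in [gar-] and 16.8, 20.2 and 18.2 in [GAR+], and cleared the controls on 2 arrays, [gar-] culture 3 and [GAR+] culture 2. Its log2 fold change was 0.04 with a standard error of 0.14. IME4, an mRNA adenosine methyltransferase needed for sporulation, read 11.2, 13.4 and 13.5 in [gar-] and 8.55, 4.08 and 6.55 in [GAR+]. Only [gar-] culture 3 cleared its array's control level. The groups did not overlap, and IME4 had the second smallest unadjusted p of the 35 genes (limma, 0.0217, adjusted p 1.00), with a log2 fold change of -0.36 and a standard error of 0.13.

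Of the 15 recombination and chromosome axis genes, only ZIP1 was above the controls on all 6 arrays, and 7 were above them on none. ZIP1 encodes a protein of the central region of the synaptonemal complex, the structure that joins paired chromosomes. It read 38.3, 31.2 and 33.5 in [gar-] and 40.3, 32.8 and 20.5 in [GAR+], so that [GAR+] culture 3 cleared its control level of 20.2 by a small margin only. The groups overlapped, and the log2 fold change was -0.11 with a standard error of 0.18.

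RED1 and SPO22 cleared the controls on 5 arrays. RED1, a protein of the chromosome axis, read 23.2, 54.3 and 32.1 in [gar-] and 25.6, 75.3 and 26.1 in [GAR+]. The highest value of each group was that of culture 2. REC104, one of the partners of Spo11, also had its highest values there, with 13.5, 24.3 and 9.14 in [gar-] and 11.5, 18.4 and 6.10 in [GAR+], and was above the controls on these 2 arrays alone. What cultures of the same number share is not given in the labels. Neither gene separated the groups: the log2 fold change was 0.09 with a standard error of 0.32 for RED1 and -0.17 with a standard error of 0.21 for REC104.

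SPO22, known also as ZIP4 and needed for crossovers and synapsis, read 26.1, 35.8 and 28.0 in [gar-] and 22.0, 23.1 and 21.8 in [GAR+]. The [GAR+] values lay close together and below every [gar-] value. Its log2 fold change was -0.26 with a standard error of 0.14 and a 95% confidence interval of -0.58 to 0.06. SPO16, another factor of crossover formation, cleared the controls on 3 arrays and gave -0.03 with a standard error of 0.15.

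SPO11, which cuts DNA to start meiotic recombination, was below the controls on all 6 arrays. It read 1.96, 1.46 and 2.97 in [gar-] and 8.48, 6.77 and 8.18 in [GAR+]. The [GAR+] values were the higher 3, and each of the 6 was at most 0.450 times its array's highest control. SPO11 had the smallest unadjusted p of the 35 genes (limma, 0.00809), with a log2 fold change of 0.39 and a standard error of 0.12, and did not pass (adjusted p 1.00). The exact two-sided permutation test gave 0.1, the smallest p that 3 arrays against 3 allow. Since both groups were below the controls, no ratio of the signals is given.

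Those partners of Spo11 in break formation that are among the 35 genes were near or below the controls too. REC102 read 10.8 to 11.6 in [gar-] and 12.9 to 15.9 in [GAR+], without overlap, and cleared the controls on 1 array, that of [GAR+] culture 2. REC114 stayed between 0.388 and 4.64. The meiotic strand exchange gene DMC1 read 16.4 to 24.5 over the 6 arrays and was above the controls in [gar-] culture 3 and [GAR+] culture 2. Its second probe set read 6.27 to 14.2 and cleared no array.

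HOP2, whose product assists Dmc1, read 9.76, 7.54 and 3.86 in [gar-] and 4.06, 0.662 and 4.21 in [GAR+], all below the controls. The groups overlapped, and the log2 fold change was -0.28 with a standard error of 0.15 (limma, unadjusted p 0.0892, adjusted p 1.00). HOP1, an axis protein, and MEK1, the kinase that acts with Hop1 and Red1, were at or under 8.85 and 6.64 throughout. SPO13, which guides chromosome segregation in the first meiotic division, and MER1, a splicing activator, did not exceed 12.1 and 13.0. REC8, the meiotic cohesin subunit, ranged from 5.77 to 19.7 and was above the controls on 3 arrays. The log2 fold changes of these 5 genes lay between -0.08 and 0.03.

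Of the 16 genes of nuclear division, spore formation and spore wall, 4 were above the controls on all 6 arrays and 5 on none. SPO12 was one of the 4, at 10.7 to 17.8 times the highest control of its array. Besides its part in meiosis, Spo12 helps growing cells leave mitosis. It read 296, 347 and 225 in [gar-] and 217, 224 and 216 in [GAR+]. The 3 [GAR+] values and [gar-] culture 3 lay close together, and the groups were parted only by the gap between 224 and 225. The means were 289 ± 61.2 and 219 ± 4.47 (SD, n = 3). The log2 fold change was -0.36 with a standard error of 0.18 and a 95% confidence interval of -0.77 to 0.06, and SPO12 did not pass (limma, unadjusted p 0.0835, adjusted p 1.00).

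SSP1 encodes a protein of the coat at the leading edge of the prospore membrane, which encloses the spore. Its probe set read 97.0, 119 and 63.1 in [gar-] and 69.5, 70.6 and 64.4 in [GAR+]. [gar-] cultures 1 and 2 were high, while [gar-] culture 3 was the lowest of all 6. The log2 fold change was -0.34 with a standard error of 0.21 and a 95% confidence interval of -0.81 to 0.12.

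SGA1, an enzyme that releases glucose from glycogen during sporulation, read 85.8, 62.3 and 56.5 in [gar-] and 64.9, 59.5 and 59.3 in [GAR+]. The groups overlapped, with a log2 fold change of -0.11 and a standard error of 0.17. A second probe set annotated to SGA1 was below the controls on all 6 arrays, at 3.78 to 16.9, so its detection rests on 1 of its 2 probe sets.

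SPS19 encodes a peroxisomal reductase that helps to break down unsaturated fatty acids. It read 44.6, 26.2 and 44.9 in [gar-] and 43.5, 41.1 and 50.1 in [GAR+]. The value of [gar-] culture 2 was the lowest, and the groups overlapped (log2 fold change 0.18, standard error 0.18). SPS4 read 28.9, 18.7 and 18.4 in [gar-] and 22.8, 18.1 and 30.5 in [GAR+], missing the controls in [gar-] culture 2 alone.

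**Figure D3:**
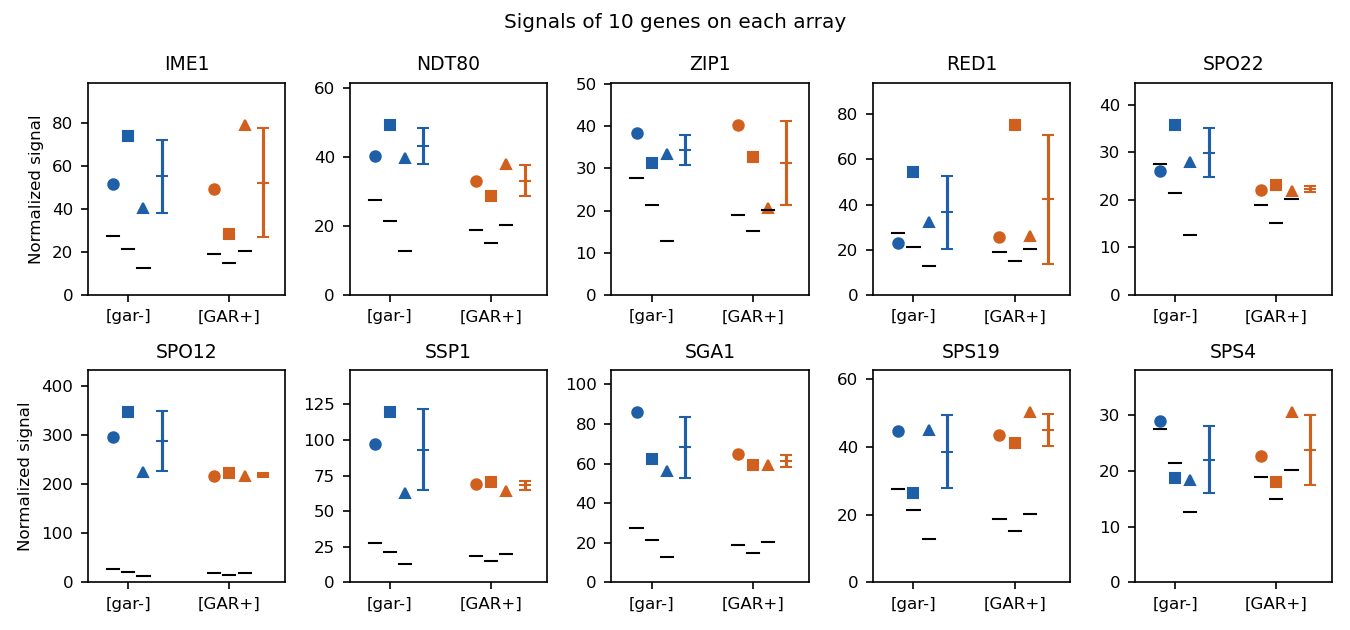
Normalized signal of the 10 genes that cleared the controls on 5 or 6 arrays, on linear axes from 0. Circles, squares and triangles stand for cultures 1, 2 and 3, the bars beside them for mean ± SD (n = 3), and short black lines for the highest non-yeast control of each array. SPO12 lies far above its controls in both groups, RED1 is highest in culture 2 of each group, and ZIP1 in [GAR+] culture 3 sits at its control level.

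The spore wall genes among the 35 were near or under background. DIT1 and DIT2 make dityrosine, a component of the outermost spore wall layer. DIT1 read 14.0 to 19.5 in [gar-] and 17.8 to 26.0 in [GAR+]. DIT2 read 0.727, 1.29 and 0.819 in [gar-] and 5.66, 5.17 and 2.30 in [GAR+], all below the controls. The DIT2 groups did not overlap, and its log2 fold change was 0.26 with a standard error of 0.12 (limma, unadjusted p 0.0586, adjusted p 1.00).

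SPS100, a spore wall protein gene, ranged from 14.1 to 24.3, and SPS2, whose product also serves the spore wall, from 0.480 to 4.18. SMK1, a MAP kinase of spore wall assembly, did not exceed 7.99, and SPS1, a protein kinase needed for the same process, read 9.20 to 22.7. Of these 4 genes, SPS100 and SPS1 cleared the controls on 2 arrays each and the others on none. The log2 fold changes ran from -0.14 for SPS2 to -0.004 for SPS1.

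Apart from SSP1, those of the 35 genes that serve the prospore membrane and the spindle pole were not above the controls on all 6 arrays. SPO20, a membrane fusion protein of the prospore membrane, did not exceed 8.91, and SPO19, a protein anchored to that membrane, did not exceed 11.8. SPO21, which builds the meiotic plaque on the spindle pole body, ranged from 13.2 to 20.9 and cleared the controls on 3 arrays. SPO1, a relative of phospholipase B, read 6.15 to 27.4 and also cleared 3. SPS18 read 10.7 to 17.4 and cleared 1, and its other probe sets stayed at or under 7.49. The log2 fold changes of these 5 genes lay between -0.23 and 0.07.

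By the gene order of the reference genome R64, 5 pairs of the 35 genes are direct neighbours among protein-coding genes. SPS18 and SPS19 are transcribed away from each other, and SPS18 was above the controls on 1 array while SPS19 was on all 6. SPO22 and HOP1, likewise divergent, were above them on 5 arrays and none. SPO12 and SPO16, which are transcribed towards each other, were so on 6 and 3. The divergent pair DIT1 and DIT2 and the tandem pair SPS1 and SPS2 gave 2 arrays and none each. In none of the 5 pairs did both genes clear all 6 arrays.

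No gene of the 35 passed the test between [GAR+] and [gar-], in either direction. The test was limma on all probe sets with 1 gene, with Benjamini-Hochberg adjustment over all 6504 of them and a threshold of 0.05, and 1 of 5656 genes (0.0177%) passed, a gene outside this list. The smallest adjusted p of the 35 was 1.00. At an unadjusted p under 0.05 there were 2 of 35 (5.71%), SPO11 higher and IME4 lower in [GAR+], against 157 of all genes (2.78%, of which 1.24% higher and 1.54% lower). Both are genes whose signals were at or below the controls.

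For all 35 genes the 95% confidence interval of the fold change lay within 2-fold in either direction on the log2(signal + 16) scale. The same held for 5428 of all 5656 genes, so it does not set the 35 apart. Where a gene lay below the controls, such an interval does not limit how far its transcript may have changed. The median log2 fold change was -0.04, beside 0.01 over all genes, with 21 genes below and 14 above 0. By role, the medians were -0.18 for the 4 regulators, -0.001 for the 15 recombination and axis genes and -0.08 for the 16 genes of nuclear division, spore formation and wall. The range ran from -0.36 for IME4 to 0.39 for SPO11.

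The groups did not overlap for 7 of the 35 genes (20.0%), against 508 of all genes (8.98%). SPO11, REC102 and DIT2 were higher in [GAR+] (8.57%, against 4.42% of all genes), and IME4, NDT80, SPO12 and SPO22 were lower (11.4%, against 4.56%). Of the 7, NDT80 and SPO12 were above the controls on all 6 arrays. This count depends on whether the arrays are scaled. It was 3 on the deposited signals, where SPO11, DIT2 and SPS2 did not overlap, and 1.20% of all genes did not. With scaling to the same trimmed mean it was 8 (8.54% of all genes), 6 of them shared with the 7.

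**Figure D4:**
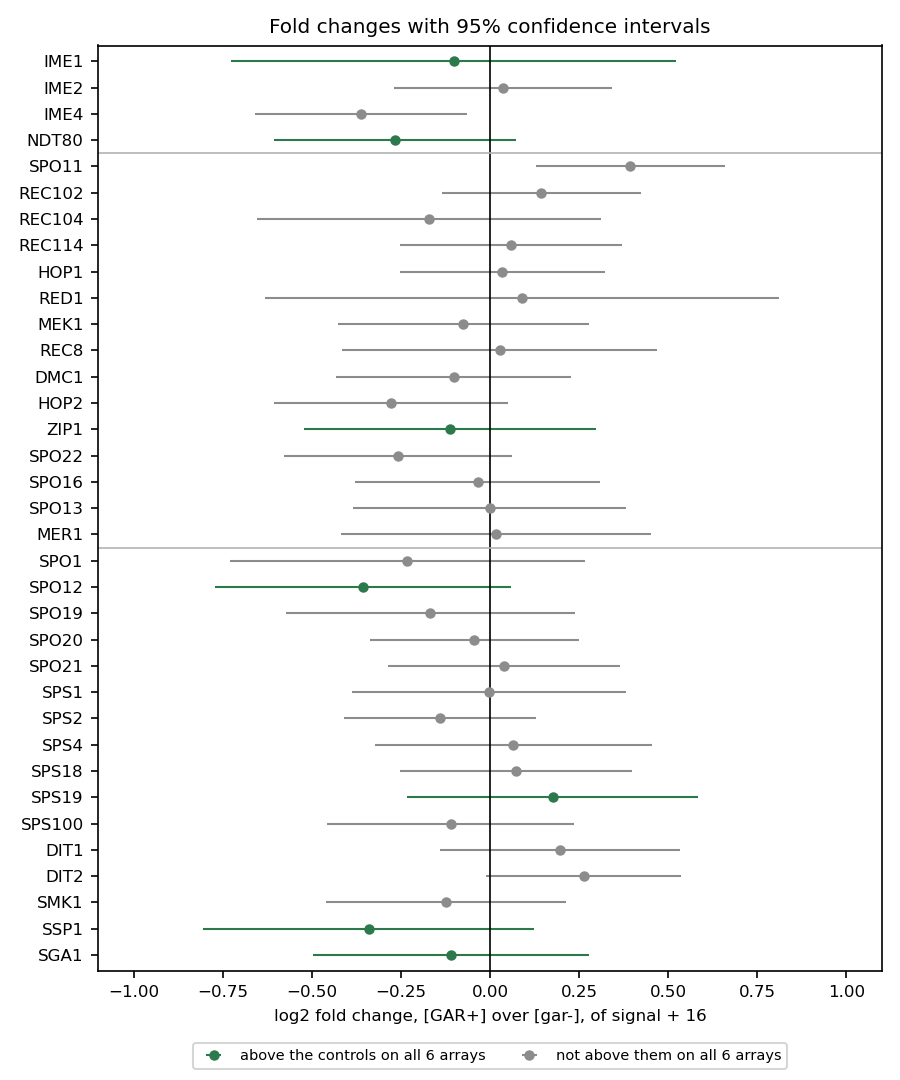
Log2 fold change of [GAR+] over [gar-] for the 35 genes, on the log2(signal + 16) scale, with 95% confidence intervals from limma (3 arrays a group). Green points are the 7 genes above the controls on all 6 arrays, grey points the others, and grey lines part the roles. The intervals of SPO11 and IME4 alone leave out 0, before any adjustment, and neither gene passed.

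A second list held 50 further meiosis and sporulation genes. Of these 49 were measured, and 14 of them, 28.6%, were above the controls on all 6 arrays and 20 (40.8%) on none. The 14 were MND2, REC107, HFM1, MSH5, SPR6, OSW2, SPO71, SPO73, ISC10, ADY3, ADY4, SHC1, MIP6 and SPO14. Some of these also act in growing cells, such as SPO14, a phospholipase D, and MND2, a subunit of the anaphase-promoting complex. None of the 49 passed the test, and their median log2 fold change was -0.002. MND2 read 95.6, 81.5 and 77.5 in [gar-] and 63.6, 64.8 and 43.4 in [GAR+], a log2 fold change of -0.47 with a standard error of 0.18 (limma, unadjusted p 0.0255, adjusted p 1.00). PCH2, a checkpoint gene of meiotic prophase, gave 0.34 with a standard error of 0.15 (unadjusted p 0.0471) at signals below the controls on all 6 arrays.

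The genes that hold meiosis down, or feed signals into it, were mostly above background, as most genes on the array were. Of 28 such genes 26 (92.9%, against 87.7% of all genes) cleared the controls on all 6 arrays, SWI4 and RIM13 being the exceptions. In either direction 0 passed the test. UME6, which recruits the repressor of early genes, read 82.2, 61.1 and 62.4 in [gar-] and 62.4, 70.0 and 72.4 in [GAR+], with a log2 fold change of 0.002 and a standard error of 0.16. SUM1, the repressor of middle genes, read 374, 347 and 439 in [gar-] and 400, 617 and 477 in [GAR+]. The groups overlapped, and the log2 fold change was 0.34 with a standard error of 0.19. RME1, the haploid repressor of IME1, read 880, 917 and 830 in [gar-] and 736, 710 and 836 in [GAR+], with a log2 fold change of -0.20 and a standard error of 0.14. SNF1, the kinase needed to express genes that glucose represses, gave 0.34 with a standard error of 0.16 (limma, unadjusted p 0.0554, adjusted p 1.00).

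Markers of cell type were read on the same arrays. Of all genes 87.7% were above the controls on all 6 arrays, so a share near that does not mark a cell type. Of 9 genes that haploid cells express and a/alpha diploids repress, 8 (88.9%) were above the controls on all 6 arrays, and NEJ1 was on 5. Their summed signal was 3258 to 3536 in [gar-] and 2907 to 3517 in [GAR+]. Of 7 genes specific to a cells, 6 (85.7%) were above on all 6 arrays, ASG7 being the exception, with summed signals of 5353 to 6785 and 6430 to 8524. Of 4 genes specific to alpha cells, only SAG1 was (53.3 to 70.7), while STE3, the receptor gene of alpha cells, read 13.0 to 19.3. The alpha list summed to 103 to 116 in [gar-] and 108 to 138 in [GAR+]. Among the a-specific genes, MFA1 and AGA2 had the smallest p, with log2 fold changes of 0.63 (standard error 0.28) and 0.22 (0.15). Of these 7 genes 4 were above 0 and 3 below. Among the alpha-specific genes MF(ALPHA)1 and MF(ALPHA)2 had the smallest p, at 0.39 (0.21) and 0.19 (0.14), with 3 of the 4 genes above 0 and 1 below.

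Of 11 marker genes of sporulating cells, 4 of which are also among the 35, OSW2 alone cleared all 6 arrays (67.5 to 158), and 5 cleared none. Their summed signal was 228 to 301 in [gar-] and 209 to 288 in [GAR+]. Of 6 stationary phase markers, SNZ1, SPG5 and HSP26 cleared all 6 arrays, and the list summed to 452 to 620 in [gar-] and 292 to 468 in [GAR+]. SNZ1 gave a log2 fold change of -0.41 with a standard error of 0.22 and SPG1 0.27 with 0.15. None of these markers passed the test, and the part of any of these lists in the values of the 35 genes was not tested.

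**Figure D5:**
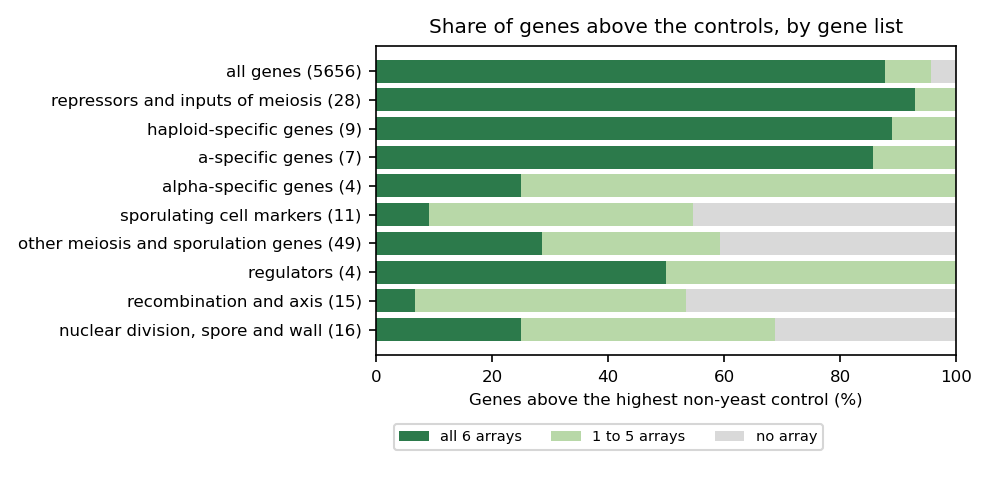
Share of genes (%) above the highest non-yeast control on all 6 arrays (dark green), on 1 to 5 (light green) and on none (grey), by gene list, with the number of measured genes in brackets. All genes, the repressors and inputs of meiosis and the haploid-specific and a-specific genes reach 85.7% to 92.9% in dark green, the recombination and axis genes 6.67%, and the genes of nuclear division, spore and wall 25.0%.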

How the data were processed

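Per the submitters' processing notes, the deposited values are MAS5 and GCOS signal intensities, 1 linear intensity per probe set and array; no version or scaling target is given. Trimmed means (2% off each end) ran from 192 to 500, so the 6 arrays were quantile-normalized over all 9335 probe sets. Of these, 6504 carried exactly 1 gene in the platform annotation (5656 genes), 328 several, and 2503 none. The test was limma 3.58.1 under R 4.3.3 (lmFit, eBayes with intensity trend) on log2(signal + 16), two-sided, without covariates, after a trial on simulated data. Precision is limited by the number of arrays, with a median standard error of 0.18.

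The 16 background controls were 4 mouse, 3 TrpnX and 9 reverse-strand spike-in probe sets. The design had listed 19, of which 7 (mouse and TrpnX) were kept. The other 12, for Bacillus dap, lys, phe and thr, read up to 583 with signal falling from 3′ to 5′, as from added RNA, and were left out. The 9 reverse-strand probe sets were not in the design and were added, so that the set is that of earlier work on these data; they hold the highest control of all 6 arrays and so set the background level. Both changes were made before the signals of the 35 genes were read here. A planned search for promoter motifs was not run, since no sequence was used here. The 35 genes and the lists were chosen with earlier results of these data known. Named in full were the genes above the controls on all arrays, the regulators, SPO11 and the 5 of smallest unadjusted p. Of the other lists, passing genes or else the 2 of smallest p were to be named, with UME6, SUM1 and RME1. For some of these only the fold change is given, and STE4 and GAS4, due by this rule, were left out. Other values, such as those of RED1, REC104, SPO22 and SPS4, were added after they were seen.

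After subtracting group means, arrays of the same culture number correlated at 0.322, 0.347 and 0.346, so the culture numbers were treated as pairs in an alternative fit. The labels call the cultures separate but do not say what a number shares.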

Additional observations from a re-analysis of the deposited data

How the results depend on the processing

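The count of the 35 genes above the controls on all 6 arrays was 7 as reported. It was 21 against the mouse controls alone (94.7% of all genes) or with the TrpnX controls (94.6%). Against the highest control multiplied by 2 it was 3 (SPO12, SSP1 and SGA1), beside 76.0% of all genes. Against the 19 controls first planned it was 0, and 14.6% of all genes cleared them. Those 19 were the background set in the design, which the 16 controls replaced. The TrpnX alternative and a common level for all arrays (5 genes) were chosen after seeing the data, as was giving the 19 as an alternative. The count was 9 with the second highest control and 7 to 9 with 1 array left out. In all 16 alternative fits 0 of the 35 genes passed and 1 probe set passed in each of those where probe sets were tested one by one. With the culture number as a replicate block these counts were also 0 and 1, the smallest adjusted p of the 35 was 0.735, and SPO12 joined SPO11 and IME4 at an unadjusted p under 0.05. The block changed no call. Without normalization the median of all genes shifted to 0.16 and that of the 35 to 0.06, and the count of genes without overlap fell from 7 to 3. With scaling to the same trimmed mean that count was 8. For 13 of the 35 genes the sign of the fold change held in every fit that included the gene. SPO11, IME4, NDT80, SPO12 and SSP1 were among the 13. Up to 12 genes had the other sign in 1 fit, the one without both arrays numbered 2. Since 0 of the 35 genes passed in any fit, these sign changes could not concern a gene that passed. The dim filter kept 14 of the 35 genes in the fit, and SPO11 and IME4 were not among these. Signals near the controls limit what can be read for the other genes.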

Other observations

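The probe sets for Bacillus subtilis dap, lys, phe and thr gave deposited signals of 7.70 to 583. On the array's scale as deposited the 3′ probe set of dap read 236 to 583 and its 5′ probe set 89.7 to 219. What was added to the samples is not given in the sources used here.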
